A study of Homo sapiens with 6 samples.

Results

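The DNA replication origin and fork genes are 44 genes whose proteins select, load and fire replication origins and then copy DNA at the fork. They were listed by name with earlier results of these data known, although no measured value entered the rule. All 44 were found among the 18404 genes that the array platform names through a probe set with a single gene symbol. Each of the 44 had 1 probe set, and each was bright enough to be tested among 13803 genes. Their RNA levels were measured in H661, an established line of human large cell lung carcinoma, on Affymetrix arrays. The 3 Scr-sh arrays hold RNA of cells that received a scramble short hairpin RNA (shRNA), and the 3 SALL4-sh arrays hold RNA of cells that received an shRNA against SALL4, a zinc finger transcription factor of stem and germ cells. Every cell population carried a lentiviral hairpin vector, and all were grown in RPMI medium with serum. The comparison asks how the RNA of each replication gene differed when SALL4 was silenced.

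The comparison rests on 1 cell line, and a single hairpin against SALL4 is described in the methods. The time from transduction to harvest was not stated for these arrays. The labels number 3 samples per group without saying whether each was a culture of its own, so a p-value here covers only sample-to-sample spread, part or all of which may be technical. In bulk RNA, a smaller share of cells in S phase and less RNA per cell cannot be told apart.

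As background, replication origins are bound by the origin recognition complex (ORC), which with CDC6 and CDT1 loads rings of the MCM2 to MCM7 helicase in G1 phase. The kinase CDC7, with its partner DBF4, then lets CDC45 and the GINS complex join the helicase, and the fork opens. DNA polymerases, the sliding clamp PCNA, its loader and the single-strand binding protein RPA copy the strands, and many of these genes are transcribed from promoters bound by E2F factors as cells enter S phase. The genes are widely used as signs of proliferation in tumours.

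To show what the genes share at the DNA level, promoter windows were searched for E2F words. RefSeq promoter sequences of GRCh38.p14, each running from 250 bases before to 50 bases after a gene's start, matched 38 of the 44 genes and gave 48 promoters. The E2F words searched were TTTGGCGC, TTTGCCGC, TTTCGCGC and TTTCCCGC on both strands. At least 1 of them was present in 20 of the 48 promoters (41.7%), against 3.31% of 35116 promoters in the RefSeq table. The word CCAAT was present in 27 of the 48 (56.2%), against 34.6% of all promoters. The word TTTGAA, a core of elements found in late cell cycle promoters, was present in 2 of the 48 (4.17%), against 15.2%. Stretches of 200 bases are printed 5′ to 3′ on the strand of the gene. Capitals mark the E2F words in the first 4 stretches and the CCAAT word in that of RFC1, and the CCAAT words that POLA1, MCM6 and PCNA also hold are in lower case. POLA1 (the polymerase α catalytic subunit) is shown because it had the largest increase among the 44 genes. MCM6 (a helicase subunit) and PCNA are shown because their groups did not overlap and they hold E2F words, which in MCM6 lie in overlapping pairs of opposite strands. CDT1 (a licensing factor) holds an E2F word and had lower SALL4-sh values, and RFC1 (the large clamp loader subunit), which fell, is shown with its CCAAT word since no E2F word was found in its windows. The stretches lie at chrX:24693718-24693917, plus strand (POLA1), chr2:135876444-135876643, minus strand (MCM6), chr20:5126623-5126822, minus strand (PCNA), chr16:88803589-88803788, plus strand (CDT1) and chr4:39366363-39366562, minus strand (RFC1).
POLA1: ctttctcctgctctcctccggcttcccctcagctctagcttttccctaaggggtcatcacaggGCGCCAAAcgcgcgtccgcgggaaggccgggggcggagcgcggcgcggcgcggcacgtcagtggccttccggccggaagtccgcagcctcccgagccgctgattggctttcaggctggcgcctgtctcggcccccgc
MCM6: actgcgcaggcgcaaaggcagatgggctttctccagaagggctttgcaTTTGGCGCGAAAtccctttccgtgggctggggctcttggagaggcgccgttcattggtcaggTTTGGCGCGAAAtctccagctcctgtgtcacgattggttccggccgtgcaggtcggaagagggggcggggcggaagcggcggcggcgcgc
PCNA: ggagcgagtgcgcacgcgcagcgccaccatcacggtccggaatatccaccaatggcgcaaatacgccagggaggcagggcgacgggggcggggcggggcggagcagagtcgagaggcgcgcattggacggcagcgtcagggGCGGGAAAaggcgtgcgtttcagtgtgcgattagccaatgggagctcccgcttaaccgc
CDT1: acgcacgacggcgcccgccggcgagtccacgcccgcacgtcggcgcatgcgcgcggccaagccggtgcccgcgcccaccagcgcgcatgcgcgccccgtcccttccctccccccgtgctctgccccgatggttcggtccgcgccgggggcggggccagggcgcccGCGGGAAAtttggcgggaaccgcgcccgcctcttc
RFC1: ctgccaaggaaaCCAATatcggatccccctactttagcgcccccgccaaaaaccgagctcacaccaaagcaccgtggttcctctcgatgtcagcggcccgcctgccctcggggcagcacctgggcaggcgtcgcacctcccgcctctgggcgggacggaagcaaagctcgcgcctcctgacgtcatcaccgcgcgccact

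Median changes with and without an E2F word lay close together. The median log2 fold change was 0.06 over the 20 genes with such a word and 0.05 over the 18 genes without one. Of the 20, CDC7 and POLA1 were higher at the threshold and 0 were lower, and of the 18, 1 was higher and 1 was lower. MCM4, which was also higher, is among the 6 genes without a matched promoter and is in neither group. A match describes the letters of the window and says nothing of binding.

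The arrays were checked against the knockdown and the cell type. SALL4 was 126, 104 and 130.2 on the Scr-sh arrays and 33.6, 31.9 and 26.5 on the SALL4-sh arrays, in units of normalized intensity, a log2 fold change of -1.97 (SE 0.17) with an adjusted p of 0.000644 from limma. EPCAM, an epithelial marker, lay between 589.8 and 1113 on the 6 arrays. Of the other epithelial markers, KRT8 lay between 8 and 11.1, where 8 is the lowest value the table holds, KRT18 between 28.8 and 76.7 (log2 fold change -0.44) and KRT19 between 10.2 and 15 (-0.11), and none of these 3 was called. The mesenchymal marker VIM lay between 940.5 and 1615 (-0.35, not called). CDH1 rose from between 8 and 10.5 on the Scr-sh arrays to between 16.1 and 17.3 on the SALL4-sh arrays (adjusted p = 0.00965 from limma), and its part in the results was not tested. The leukocyte genes PTPRC, CD3E and MS4A1 stood at 8 on all arrays, CD14 lay between 8 and 9.99, and CD68 between 30.5 and 71.6. Arrays of a group correlated at 0.969 to 0.980 and arrays of different groups at 0.955 to 0.965 (Pearson's r of log2 intensity across all 32321 probe sets, which are not independent replicates).

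Of the 44 genes, 4 rose and 1 fell in SALL4-sh cells at an adjusted p under 0.05 (limma, Benjamini-Hochberg adjustment over the 13803 genes tested). The 4 that rose were MCM4, CDC7, POLA1 and RRM2, 9.09% of the 44 against 5.95% of all genes tested, and the 1 that fell was RFC1, 2.27% against 5.54%. In either direction the share was 11.4% of the 44 and 11.5% of all genes, so the share was at the background. With no filter on dim genes, 0 of the 44 passed, while 1.18% of 18404 genes were called higher and 1.33% lower. At an unadjusted p under 0.05, 11 of the 44 were higher (25%, against 13.6% of all genes tested) and 3 were lower (6.82%, against 11.1%).

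The groups did not overlap, all 3 arrays of one lying above all 3 of the other, for 15 of the 44 genes. In 11 of these the SALL4-sh arrays were higher (25%, against 15.7% of all genes tested), and in 4 they were lower (9.09%, against 13.1%). An exact two-sided permutation test of 3 against 3 arrays cannot go below p = 0.1, so non-overlap alone cannot pass 0.05. The median log2 fold change of the 44 genes was 0.10, against 0.02 over all genes tested, and 25 estimates were above 0 and 19 below. Within most complexes the estimates lay on both sides of 0, as the account by role shows.

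**Figure D1:**
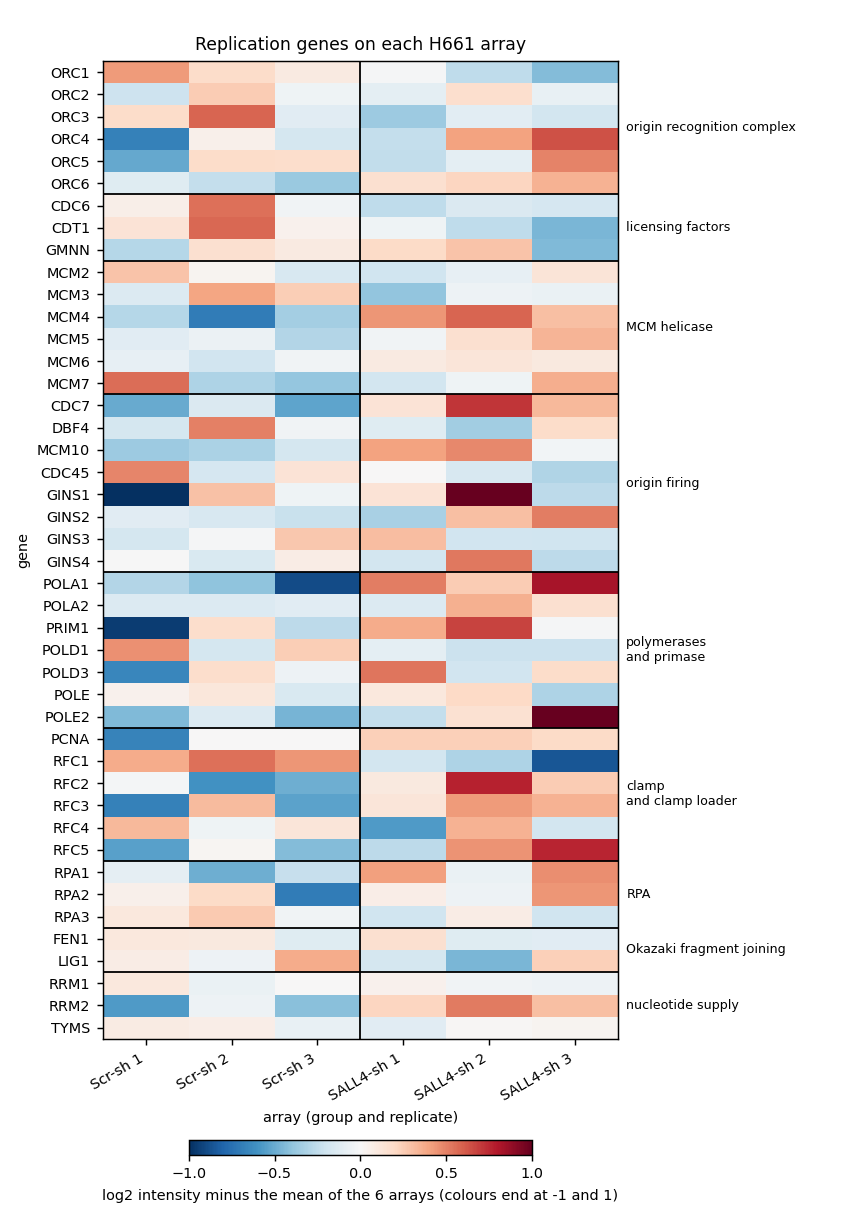
Log2 intensity of each of the 44 replication genes (one line each) on the 6 arrays (columns, 3 Scr-sh then 3 SALL4-sh), as the difference from the gene's mean over the arrays, with colours ending at -1 and 1. The groups were apart for 15 of the 44 genes, with the SALL4-sh arrays higher in 11 and lower in 4, and the colours of most other lines mix across the dividing line.

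The origin recognition complex marks the sites where replication can start. Of its 6 genes, 0 passed the threshold, against 11.5% of all genes tested, and their log2 fold changes ran from -0.47 to 0.53. ORC1, the subunit that comes and goes with the cell cycle, was 14.5, 12.3 and 11.5 on the Scr-sh arrays and 10.7, 9.1 and 8 on the SALL4-sh arrays. The groups were apart with SALL4-sh lower, but all values are near the lowest the table holds and the third SALL4-sh array stood at it, so the fitted log2 fold change of -0.47 (95% interval -0.87 to -0.06, adjusted p = 0.135 from limma) is limited by that floor. ORC6, the smallest subunit, was 81.1, 74.8 and 68 on the Scr-sh arrays and 98.4, 102 and 112 on the SALL4-sh arrays. Here SALL4-sh was higher on every array, with a log2 fold change of 0.48 (interval 0.13 to 0.84, adjusted p = 0.0831 from limma). ORC4, at 0.53, and ORC3, at -0.44, had groups that overlapped. ORC2 had a log2 fold change of -0.00389 with an interval of -0.41 to 0.40, and ORC5 of 0.10 with an interval of -0.48 to 0.68.

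The licensing factors CDC6 and CDT1 had lower intensities on all SALL4-sh arrays, although neither passed the threshold. CDC6, which joins ORC to load the helicase, was 57.9, 81.4 and 54.5 on the Scr-sh arrays and 46.6, 50.3 and 49.6 on the SALL4-sh arrays. Its log2 fold change was -0.38 (interval -0.81 to 0.04, adjusted p = 0.254 from limma). CDT1, which brings the MCM rings to the origin, was 16.3, 22.1 and 15.3 against 14.4, 12.5 and 10.8. This gave -0.50 (interval -0.94 to -0.06, adjusted p = 0.146 from limma). GMNN, which encodes geminin, the inhibitor of CDT1, overlapped between the groups at 0.02 (interval -0.49 to 0.53).

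The MCM helicase genes did not change together. MCM4 rose while MCM2 (-0.10) and MCM3 (-0.34) had negative estimates that did not pass the test, although the 6 proteins form 1 ring. MCM4 was 51.6, 38.6 and 49.6 on the Scr-sh arrays and 85.5, 94.3 and 77.4 on the SALL4-sh arrays, with a gap between the groups wider than the spread within either. The log2 fold change was 0.89 (SE 0.18, interval 0.49 to 1.28, adjusted p = 0.0139 from limma). The adjusted p was 0.0589 without SALL4-sh replicate 2 and between 0.023 and 0.0491 without each other array in turn. With no filter on dim genes it was 0.0713. MCM5 (0.31, interval -0.07 to 0.69) and MCM6 (0.21, interval -0.13 to 0.54) were higher on every SALL4-sh array without passing the test. MCM7 ranged from 81.1 to 156 within the Scr-sh arrays and overlapped between the groups (0.09, interval -0.51 to 0.70).

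Among the 8 origin firing genes, CDC7 rose and 0 fell (12.5%, near the 11.5% of all genes tested). CDC7, the kinase that phosphorylates the loaded helicase, was 66, 84.8 and 65.2 on the Scr-sh arrays and 103, 154 and 117 on the SALL4-sh arrays. Every SALL4-sh array was above every Scr-sh array, with a log2 fold change of 0.78 (SE 0.20, interval 0.33 to 1.23, adjusted p = 0.0361 from limma). Its call depended on several arrays: the adjusted p was 0.122 without SALL4-sh replicate 2, 0.0967 without SALL4-sh replicate 3, 0.105 without Scr-sh replicate 1 and 0.118 without Scr-sh replicate 3. DBF4, the subunit that activates CDC7, was 11.2, 17.9 and 12.3 on the Scr-sh arrays and 11.6, 9.91 and 14.3 on the SALL4-sh arrays. DBF4 was not called (-0.20, interval -0.70 to 0.31), and its groups overlapped. Its values lie near the floor of 8, which can make a change look smaller. Thus the catalytic subunit rose and its activator did not pass the test, and the difference between the 2 genes was not itself tested.

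MCM10, which helps the assembled helicase to start unwinding, was 43.1, 44.6 and 49.1 on the Scr-sh arrays and 73.5, 77.3 and 54.6 on the SALL4-sh arrays. The groups were apart, and the log2 fold change was 0.57 (interval 0.16 to 0.98, adjusted p = 0.0775 from limma). CDC45, a core part of the active helicase, overlapped between the groups at -0.31 (interval -0.76 to 0.14). Of the 4 GINS genes, which encode the other partner of the active helicase, 0 were called. GINS1 was the most variable of the 44 genes, with a 3.13-fold range within the Scr-sh arrays and a 2.80-fold range within the SALL4-sh arrays. Its estimate of 0.73 accordingly had a wide interval of -0.31 to 1.77. GINS2 (0.33), GINS3 (-0.06) and GINS4 (0.06) also overlapped.

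Among the 7 polymerase and primase genes, POLA1 rose and 0 fell (14.3%, near the 11.5% of all genes tested). POLA1, the catalytic subunit of the polymerase that extends RNA primers, was 41, 38 and 27 on the Scr-sh arrays and 71.5, 59.9 and 89 on the SALL4-sh arrays. The lowest SALL4-sh value lay above the highest Scr-sh value, and the log2 fold change of 1.06 (SE 0.22, interval 0.57 to 1.55, adjusted p = 0.0155 from limma) was the largest increase among the 44 genes. The adjusted p was 0.0521 without SALL4-sh replicate 1, 0.0672 without SALL4-sh replicate 3 and 0.0536 without Scr-sh replicate 3. The other genes of the same complex were not called. POLA2, the regulatory subunit, had 0.25 (interval -0.14 to 0.64), PRIM2, the large primase subunit and not among the 44, had 0.40 (interval -0.15 to 0.94), and PRIM1, the primase catalytic subunit, had 0.69 (interval 0.04 to 1.34, adjusted p = 0.176 from limma). PRIM1 ranged from 103 to 225 within the Scr-sh arrays.

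The polymerases that extend the leading and lagging strands were not called. POLE, the catalytic subunit of polymerase ε, overlapped between the groups at -0.00192 (interval -0.42 to 0.42). POLE2, its second subunit, was 11.9, 14.7 and 11.7 against 13.7, 17.9 and 35.2. The third SALL4-sh array lay far above the others, and the estimate of 0.69 had an interval of -0.01 to 1.39. POLD1, the catalytic subunit of polymerase δ, was dim, at 12.8, 8.22 and 11 on the Scr-sh arrays and 8.68, 8 and 8 on the SALL4-sh arrays. Since 2 of the SALL4-sh arrays stood at the floor, its size of change was not measurable here. POLD3, an accessory subunit, had 0.35 (interval -0.23 to 0.93).

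The 6 genes of the sliding clamp and its loader held the single call in the lower direction. This was 16.7% of them, against 11.5% of all genes tested, in either direction. RFC1, the large subunit of the replication factor C clamp loader, was 111, 126 and 117 on the Scr-sh arrays and 75.6, 69.5 and 47.4 on the SALL4-sh arrays. All 3 SALL4-sh values lay below the Scr-sh values, and the log2 fold change was -0.90 (SE 0.20, interval -1.36 to -0.45, adjusted p = 0.0212 from limma). The adjusted p was 0.0528 without SALL4-sh replicate 2, 0.0642 without SALL4-sh replicate 3 and 0.0643 without Scr-sh replicate 3. RFC2, a small subunit of the same loader, was 64.5, 43 and 46.5 against 69.8, 111 and 77.9. It was higher on every SALL4-sh array at 0.74 (interval 0.23 to 1.26), but its adjusted p was 0.071 from limma. The small subunits RFC3 (0.60, interval 0.02 to 1.17), RFC5 (0.63, interval 0.03 to 1.24) and RFC4 (-0.26, interval -0.79 to 0.27) had groups that overlapped.

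PCNA, the clamp that RFC places around DNA, was 69.2, 109.9 and 110.2 on the Scr-sh arrays and 129.7, 129.5 and 125 on the SALL4-sh arrays. The SALL4-sh values were higher and close together, while the first Scr-sh array lay well below the other Scr-sh arrays, and the log2 fold change of 0.44 (interval -0.02 to 0.91) had an adjusted p of 0.225 from limma. Without single arrays the estimate ran from 0.22 to 0.55.

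**Figure D2:**
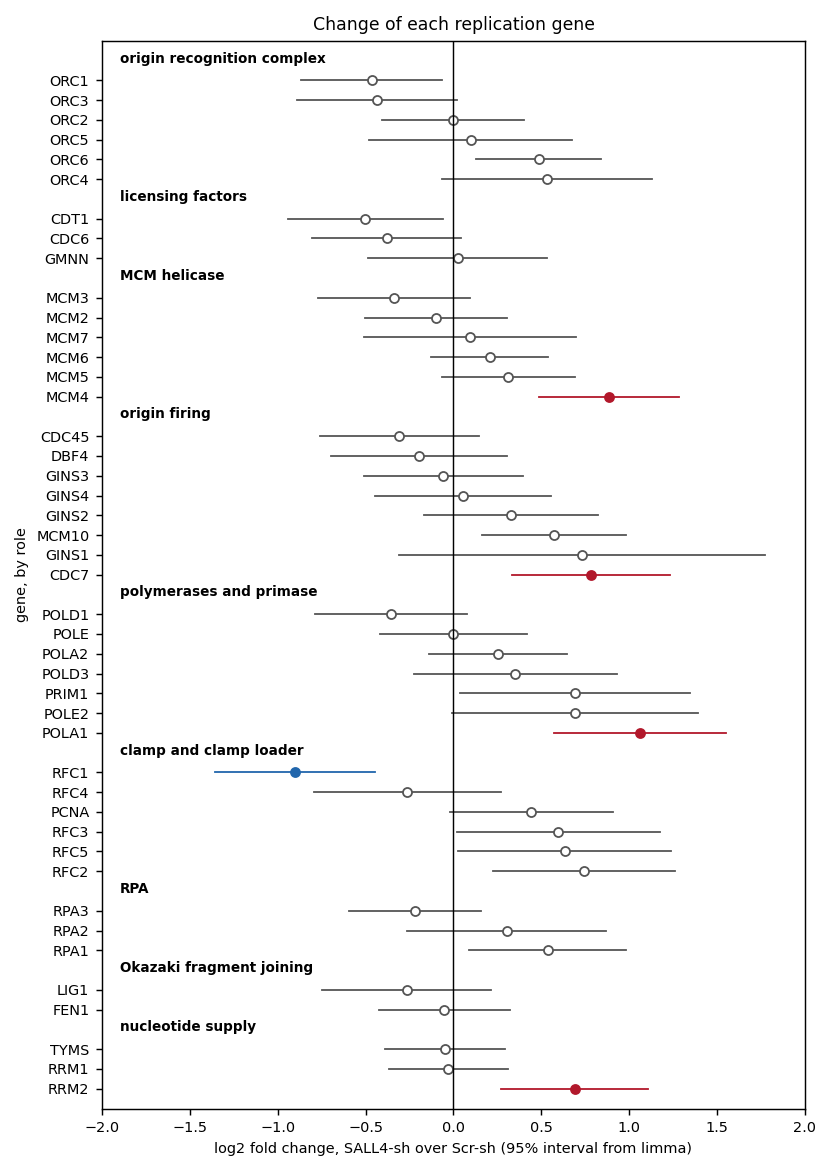
Log2 fold change of SALL4-sh over Scr-sh for each of the 44 genes by role, with the 95% interval from limma. The estimates run from -0.90 for RFC1 to 1.06 for POLA1, and within the helicase, the firing factors and the clamp loader they lie on both sides of 0.

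RPA coats single-stranded DNA at the fork, and 0 of its 3 genes were called, against 11.5% of all genes tested. RPA1, the large subunit, was 63.8, 48.3 and 57.7 on the Scr-sh arrays and 90.0, 64.5 and 93.3 on the SALL4-sh arrays. The groups were apart by less than 1 intensity unit, and the log2 fold change was 0.54 (interval 0.09 to 0.98, adjusted p = 0.123 from limma). RPA2 (0.30) and RPA3 (-0.22) overlapped between the groups. FEN1, the nuclease that trims Okazaki fragments, and LIG1, the ligase that joins them, were at -0.05 (interval -0.42 to 0.32) and -0.27 (interval -0.75 to 0.21).

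Of the 3 genes that supply deoxynucleotides, RRM2 rose (33.3%, against 11.5% of all genes tested). RRM2, the small subunit of ribonucleotide reductase and the one whose level follows S phase, was 74.2, 106 and 82.5 on the Scr-sh arrays and 127.5, 158 and 136 on the SALL4-sh arrays. The log2 fold change was 0.69 (SE 0.19, interval 0.27 to 1.11, adjusted p = 0.0438 from limma). RRM1, the large subunit of the same enzyme, lay between 113 and 127 on all 6 arrays, at -0.03 (interval -0.37 to 0.31). TYMS, thymidylate synthase, lay between 683 and 779.9, at -0.05 (interval -0.39 to 0.29). The call of RRM2 was the least firm of the 5, with an adjusted p of 0.0823 without SALL4-sh replicate 1, 0.148 without SALL4-sh replicate 2, 0.113 without SALL4-sh replicate 3, 0.131 without Scr-sh replicate 1 and 0.13 without Scr-sh replicate 3. Without Scr-sh replicate 2 it was 0.0175.

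**Figure D3:**
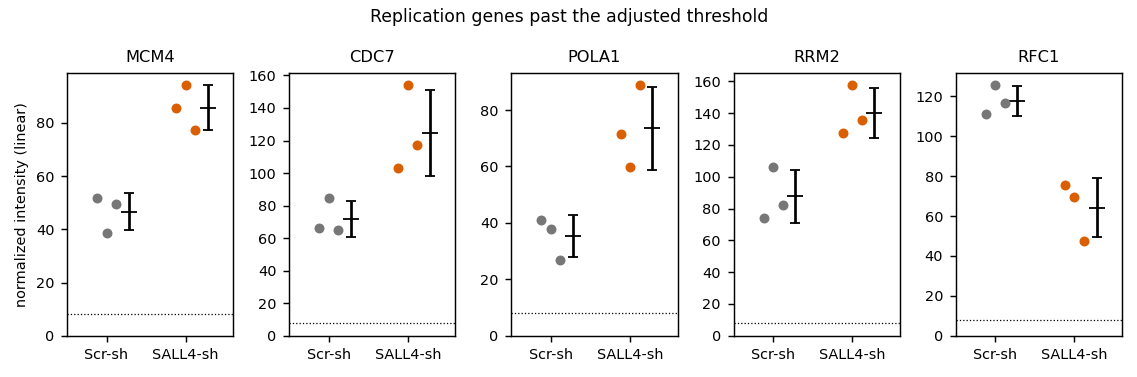
Normalized intensity on a linear axis from 0 for the 5 genes called in SALL4-sh against Scr-sh cells, with a point for each array, the mean and the SD (n = 3), and a dotted line at the floor of 8. In MCM4, CDC7, POLA1 and RRM2 the 3 SALL4-sh points lie above all Scr-sh points, and in RFC1 they lie below.

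The 44 genes were not spread evenly over the arrays of a group. Scr-sh replicate 2 held the highest value of its group in 22 of the 44 genes (50%), against 39.3% of all genes tested, and SALL4-sh replicate 1 held the lowest of its group in 22 (50%), against 33.9%. Without Scr-sh replicate 2, 6 of the 44 genes were higher at the threshold, with PRIM1 and RFC3 beside the 4 named, and RFC1 was lower. In that fit 14.1% of all genes tested were called, against 11.5% with all arrays. Without SALL4-sh replicate 2 only POLA1 passed, and without SALL4-sh replicate 3 or Scr-sh replicate 3 only MCM4 did. The share of all genes called fell as well, to 5.56%, 5.11% and 6.27% in that order. The within-group SD of log2 intensity had a median of 0.26 over the 44 genes and 0.23 over all genes tested.

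**Figure D4:**
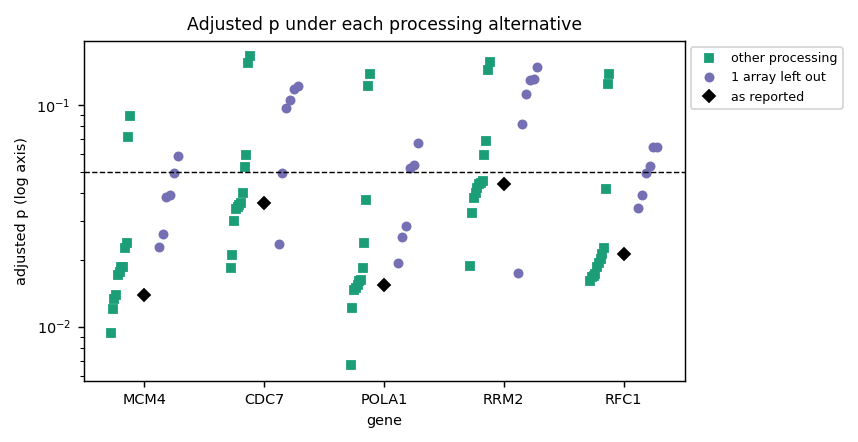
Adjusted p (log axis) of the 5 called genes as reported, under other processing choices and with single arrays left out, with a dashed line at 0.05. The adjusted p of MCM4 is 0.0139 as reported, 0.0713 with no filter and 0.0589 without SALL4-sh replicate 2, while that of RRM2 is 0.0438 as reported, lies above the line in 9 of the 19 alternatives and reaches 0.148 without SALL4-sh replicate 2.

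Other genes of the replication machinery were listed from knowledge of the pathway, with earlier results of these data known. Of 34 tested, 7 rose and 0 fell (20.6%, against 11.5% of all genes tested), with a median log2 fold change of 0.16, and the difference from the 44 was not tested. The absence of decreases depended on the processing. By scaling, 7 rose and 2 fell with median centring, 6 and 2 with cyclic loess and 6 and 3 with quantile normalization. With the deposited scaling kept, 7 rose and 2 fell with a 50th percentile filter, and 7 and 3 with array weights. Groups were apart with SALL4-sh higher in 10 of the 34 and lower in 5 (15.7% and 13.1% of all genes tested). Of the 5, DTL (-0.67, adjusted p = 0.0549) and ASF1B (-0.53, adjusted p = 0.0561) narrowly missed the threshold in limma. TOP1, the topoisomerase that relaxes DNA ahead of the fork, was 157, 151 and 152 on the Scr-sh arrays and 309, 324 and 299.8 on the SALL4-sh arrays. These groups lay well apart with little spread, and TOP1 had a log2 fold change of 1.02 (SE 0.15, adjusted p = 0.00368 from limma). It was called in every processing alternative run and was the only one of the 34 called with no filter (adjusted p = 0.00522). SSRP1 (0.79, adjusted p = 0.0254), a subunit of the histone chaperone FACT, and ASF1A (0.85, adjusted p = 0.0265), a chaperone of new histones, rose in limma, too. The call of SSRP1 was lost without Scr-sh replicate 3 or any 1 SALL4-sh array (adjusted p 0.0774 to 0.0859), and that of ASF1A without any array other than Scr-sh replicate 2 (0.0574 to 0.0945). A second, dimmer probe set of SSRP1 had 0.37 with groups that overlapped. The other 4 called genes were ATAD5, whose values follow with the clamp loaders, and CLSPN (1.14), TICRR (0.96) and TIPIN (0.99, adjusted p = 0.04998 from limma), which act in fork protection and origin firing.

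RFC1 has relatives that take its place in other clamp loaders. ATAD5, which takes the place of RFC1 in a complex that unloads PCNA, was 25.8, 53.6 and 30.9 on the Scr-sh arrays and 98.5, 97.6 and 104 on the SALL4-sh arrays. The log2 fold change of ATAD5 was 1.52 (SE 0.25, adjusted p = 0.00657 from limma), and it was called without each array in turn (0.00136 to 0.0372) but not with no filter (0.101). CHTF18 and RAD17, the large subunits of the remaining loaders, and CHTF8, an accessory subunit that works with CHTF18, are given here although they were chosen after their values were seen. CHTF18 had -0.18 (interval -0.59 to 0.23), and RAD17 had 0.73 (interval -0.24 to 1.70), with 39.7 to 156 on the Scr-sh arrays alone and 0.35 in a second, dimmer probe set. CHTF8 was 26.8, 37.9 and 30.3 against 13.5, 25.1 and 12.8, a log2 fold change of -0.94 with an adjusted p of 0.0529 from limma. RFC1 thus fell while ATAD5 rose, 2 genes whose products load and unload the same clamp, and the difference between them was not tested.

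**Figure D5:**
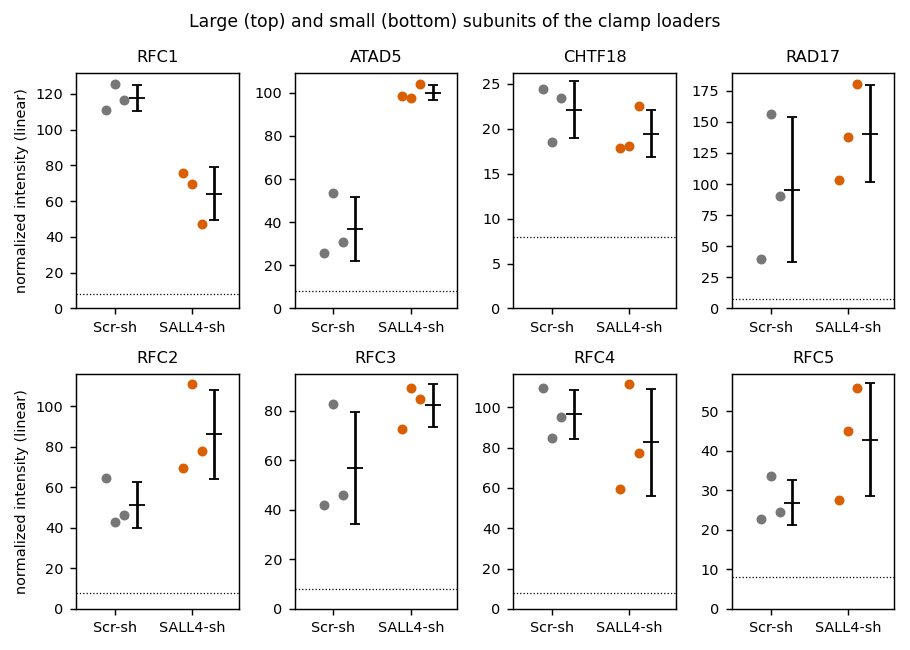
Normalized intensity on a linear axis for the clamp loader genes in the 2 groups, with a point for each array, the mean and the SD (n = 3), and a dotted line at the floor of 8. RFC1 is lower on every SALL4-sh array (47.4 to 75.6, against 111 to 126) and ATAD5 higher (97.6 to 104, against 25.8 to 53.6), while CHTF18 and RAD17 overlap between the groups.

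The regulators around the replication genes were uneven. Of 9 G1/S genes tested, 1 rose and 3 fell (44.4%, against 11.5% of all genes tested). CDK2, the kinase that drives entry into S phase, was 108, 93 and 89.6 on the Scr-sh arrays and 31.2, 33.3 and 30.8 on the SALL4-sh arrays. All SALL4-sh values lay close together and below the Scr-sh values, with a log2 fold change of -1.61 (SE 0.16, adjusted p = 0.000889 from limma). CDKN1B, which encodes the CDK inhibitor p27, fell as well (-1.14, adjusted p = 0.00396), and so did SKP2 (-0.87, adjusted p = 0.00858), which encodes the factor that marks p27 for degradation. CDC25A, the phosphatase that activates CDK2, rose (1.12, adjusted p = 0.0148 from limma), a call lost without SALL4-sh replicate 2 (0.0545) or SALL4-sh replicate 3 (0.0528). CDK2, CDKN1B and SKP2 were called in every alternative run, with no filter included. Of the 13 E2F and pocket protein genes, which control the transcription of many replication genes, 0 were called in limma. An unadjusted p under 0.05 was found for 2 of them, while 24.7% of all genes tested had one.

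The checkpoint genes also moved both ways. Of 10 tested, 3 rose and 1 fell (40%, against 11.5% of all genes tested), with WEE1 counted by its brightest probe set. CHEK2, a checkpoint kinase, was 59, 83.6 and 48.1 on the Scr-sh arrays and 22, 27 and 17.9 on the SALL4-sh arrays, at -1.50 (SE 0.24, adjusted p = 0.00541 from limma). RAD1, part of the checkpoint clamp, rose by 1.02 (adjusted p = 0.0144 from limma), and so did CDC25B, a phosphatase that activates mitotic CDKs (0.85, adjusted p = 0.022). The call of RAD1 was lost without Scr-sh replicate 3 (0.0528), SALL4-sh replicate 1 (0.0589) or SALL4-sh replicate 3 (0.0603). That of CDC25B was lost without Scr-sh replicate 1 (0.0528), Scr-sh replicate 3 (0.0524), SALL4-sh replicate 1 (0.0778) or SALL4-sh replicate 2 (0.07). WEE1, the kinase that restrains CDKs, gave a positive 0.72 (adjusted p = 0.0273 from limma) in its brightest probe set but -0.91 and -0.59 in its other probe sets, so its direction is uncertain.

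In nucleotide synthesis, outside the 44 genes, 1 of 9 tested genes rose and 1 fell (22.2%, against 11.5% of all genes tested). UMPS, which completes the synthesis of uridine monophosphate, was 29.9, 32.4 and 29.3 on the Scr-sh arrays and 43, 62.3 and 79.9 on the SALL4-sh arrays (0.97, adjusted p = 0.0249 from limma). DUT, which removes dUTP and so keeps uracil out of DNA, was 42.1, 55.5 and 58.4 against 28.5, 25.7 and 32 (-0.85, adjusted p = 0.0189 from limma). The UMPS call was lost without SALL4-sh replicate 2 or 3 or Scr-sh replicate 1 or 3 (0.0699 to 0.0866), and the DUT call without SALL4-sh replicate 1 or 2 or Scr-sh replicate 3 (0.0632 to 0.0758). No probe set with a single symbol was found for NME1 and the checkpoint gene ATRIP, and SHMT1 was too dim to be tested.

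Of the 22 genes listed for G2 and mitosis, not all of which are limited to that phase, 1 rose and 2 fell. This was 13.6% of them, near the 11.5% of all genes tested. FOXM1, a transcription factor of G2 and mitosis, was 134, 109.7 and 112 on the Scr-sh arrays and 39.8, 45 and 42.5 on the SALL4-sh arrays. Its log2 fold change was -1.48 (SE 0.16, adjusted p = 0.00133 from limma). CDC20, which switches on the anaphase-promoting complex, was 91, 75 and 71.6 against 28.7, 33.3 and 30.9, at -1.35 (SE 0.17, adjusted p = 0.00205 from limma). Both were called in every alternative run. CENPE, a kinetochore motor, rose by 1.04 (adjusted p = 0.0396 from limma), a call lost without any array other than Scr-sh replicate 2 (0.0951 to 0.137). The median log2 fold change of the 22 genes was 0.08, beside 0.02 over all genes tested.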

How the data were processed

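Gene expression was measured on 6 arrays, 3 Scr-sh and 3 SALL4-sh. The deposited table holds linear intensity, already normalized by the authors, for 32321 probe sets, and its lowest value is 8. The submitters' processing notes name RMA, with no version. Log2 intensity was taken. Each gene was read from its brightest probe set with 1 symbol. Of 18404 genes, 4601 with a mean log2 intensity in the lowest 25% were left out. The other 13803 were tested in R 4.3.3 by limma 3.58.1 (lmFit, eBayes, Benjamini-Hochberg adjustment, threshold 0.05). The filter was applied because the prior degrees of freedom fell from 5.33 to 0.422 without it, 3893 genes standing at 8 on all arrays. The test was also run on simulated data, but the outcome is not given here and is not used as support for any call. Promoters were searched with Python 3.11.15. Arrays have no read depth, and their number limits the precision.

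The members and lists (other replication genes, nucleotide synthesis, E2F and pocket proteins, G1/S, checkpoint, G2 and M) were chosen with earlier results of these data known. Full values are given for called members, for up to 8 others with separated groups and the largest changes, and for at most 4 called genes of each other list. The values of POLE2, POLD1, DBF4, DTL, ASF1B and CHTF8 were added after they were seen. The alternatives were no filter, other filters, other scalings, other fits, a one-way ANOVA, the mean of probe sets and leaving out each array. The paper names a one-way ANOVA for its own analysis of the arrays.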

Additional observations from a re-analysis of the deposited data

How the results depend on the processing

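In all, 19 alternatives were run, 6 of which left out 1 array each. The cause of a change in calls was not tested. With no filter, 462 genes, 0 of the 44 replication genes, 1 other replication gene, 0 nucleotide synthesis genes and 0 checkpoint genes were called. When only genes standing at 8 on every array were left out, 3 replication genes and 1 nucleotide synthesis gene were called, beside 8.57% of all genes. A one-way ANOVA was run with the same filter and adjustment, neither of which the paper states for its own ANOVA. The calls here were 257 of all genes, 0 of the 44, 1 other replication gene, 0 nucleotide synthesis genes and 0 checkpoint genes. Cyclic loess left 3 of the 44, beside 11% of all genes. An unadjusted p under 0.05 held for 3412 genes, 14 of the 44, 14 other replication genes, 4 nucleotide synthesis genes, 2 E2F and pocket protein genes and 9 G2 and M genes. Array weights gave 1 E2F and pocket protein gene and 5 G2 and M genes, beside 15.3% of all genes. The eBayes fit with trend and robust settings gave 5 G2 and M genes, beside 12.4% of all genes. The replication genes had a median log2 fold change of 0.25 with a filter at the 50th percentile, which left 37 of them.

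With single arrays left out, the calls ranged from 706 to 1945 genes, from 1 to 7 of the 44, from 2 to 9 other replication genes, from 0 to 3 nucleotide synthesis genes, from 0 to 1 E2F and pocket protein genes, from 3 to 5 G1/S genes, from 1 to 4 checkpoint genes and from 2 to 4 G2 and M genes. The members' median ranged from 0.0907 to 0.19, and the log2 fold change of SALL4 from -2.07 to -1.87. Groups were separated for 17 to 23 members, but separation is easier to reach with an array fewer in a group. The share over all genes was not counted in these fits, so this range shows nothing particular to the members. The mean of probe sets turned WEE1 to -0.26 (adjusted p = 0.712 from limma).

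The labels do not say whether a replicate number pairs samples, and the numbers were not treated as pairs. The correlations of same-numbered samples' deviations from the group means were 0.144, 0.113 and -0.001, with 4 of 6 samples correlating best with their own number. With the replicate number as a block, 4 of the 44 rose and 1 fell as without it, and 1 E2F and pocket protein gene was called. Intensities near 8 understate differences, which bears on ORC1, POLD1 and other dim genes such as DBF4. With 3 arrays per group, a p that misses the threshold does not show that values did not differ.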
